A study of Mus musculus with 20 samples.

Results

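The mRNAs described here are those of 9 mouse genes, Marveld1, Blmh, Txndc17, Snrpd3, Ptpro, Gpr146, Synm, Tcn2 and Htra3, of which at least 1 probe set read lower after immunoprecipitation with iron regulatory protein 2 (IRP2) than in the control reaction of at least 1 tissue. They were chosen on that very difference with earlier results of these arrays known. IRP2-minus-control values of these genes are therefore a description and carry no test. The genes have 29 probe sets with 1 gene symbol, of which 26 passed the filter on dim signals, out of 14872 genes and 25133 such probe sets in the whole series. The 3 that did not pass were Txndc17 1423036_at, Ptpro 1425863_a_at and Htra3 1427029_at, and 1 further probe set shares the Gpr146 symbol with another gene and is not described.

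The study measured which mRNAs of 5 mouse tissues are recovered with IRP2, on 20 Affymetrix mouse genome arrays. In the IRP2 reaction, 50 µg of pooled total RNA was combined with recombinant IRP2 that carries an N-terminal His tag and was made in E. coli, and complexes were recovered with a mouse monoclonal antibody against the tag. The control reaction had the same RNA and antibody without IRP2, so it reports RNA recovered without the protein. The source field of the labels names IRP2 for the control samples too, and the reactions were told apart by the sample titles. About 120 ng of recovered RNA was amplified in 2 rounds, labelled and hybridised, with 2 arrays for each tissue and reaction. All RNA came from C57BL6/J mice of both sexes. Duodenum, liver and spleen were pooled over 4 mice that ate an iron-poor diet (under 10 mg/kg) for 21 days after weaning. Bone marrow and brain were pooled over 6 mice aged 8 to 10 weeks on a diet with normal iron. Diet and age cannot be told apart from the set of tissues. The labels do not say whether both replicates drew on the same RNA pool, so the p-values rest on a spread between arrays that may be only technical. The protein was added to purified RNA, so the values concern binding in the tube and not in the animal's cells.

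IRP2 sits in the cytoplasm and binds iron-responsive elements, short hairpins outside the coding region of mRNAs for iron uptake, storage and export. When iron is scarce it blocks translation of mRNAs with the element before the coding region and stabilises the mRNA of the transferrin receptor, which has several elements after it. None of the 9 genes is among the textbook mRNAs with such an element. They code for a membrane protein with a MARVEL domain (Marveld1), enzymes of the cytosol (Blmh, Txndc17), a core protein of the splicing machinery (Snrpd3), membrane signalling proteins (Ptpro, Gpr146), an intermediate filament protein (Synm) and secreted proteins (Tcn2, Htra3).

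An array value is the deposited log2 level of a probe set, a group of short probes for 1 stretch of transcript. A pair is the IRP2 array and the control array of the same tissue and replicate number, and a pair difference is the IRP2 level minus the control level, so a value below 0 means a lower level after recovery with IRP2. Because a fixed amount of recovered RNA was labelled, a level is relative to the other mRNAs on the array. The lowest probe set of a gene is its tested probe set with the lowest mean over the 10 pairs. Transferrin receptor mRNA (Tfrc 1422966_a_at), which IRP2 binds, was higher with IRP2 in every pair, by 2.05 to 4.10 log2 units. Of the markers measured, the labelled tissue held the highest level for 6 of 6 in duodenum, 5 of 5 in liver, 6 of 6 (myeloid) in bone marrow, 4 of 5 (lymphocyte) in spleen and 3 of 5 in brain. The arrays of duodenum and liver and brain pair 1 had medians of 5.65 to 5.71, those of bone marrow and spleen and brain pair 2 had medians of 5.39 to 5.55, and no pair crosses these ranges. Bone marrow control replicate 1 stood apart: its mean Spearman correlation with the spleen arrays was 0.908, and that of the remaining arrays of this tissue 0.824 to 0.825. Over all tested probe sets, the SD of the difference was 0.568 in pair 1 of bone marrow and 0.214 to 0.312 in the remaining pairs.

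Marveld1, Blmh and Txndc17 held the 3 lowest mean pair differences of all 30153 tested probe sets, and each was below 0 in 10 of 10 pairs. Ptpro was the fourth gene with a probe set below 0 in every pair. Over all tested probe sets, 0.494% were below 0 in all 10 pairs, and since the genes were chosen on this contrast nothing is read from that count. The other 5 genes were low in 1 or 2 tissues: Gpr146 in liver and duodenum, Tcn2 in liver and spleen, Synm in liver, Htra3 in spleen and Snrpd3, on 1 probe set, in duodenum.

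**Figure D1:**
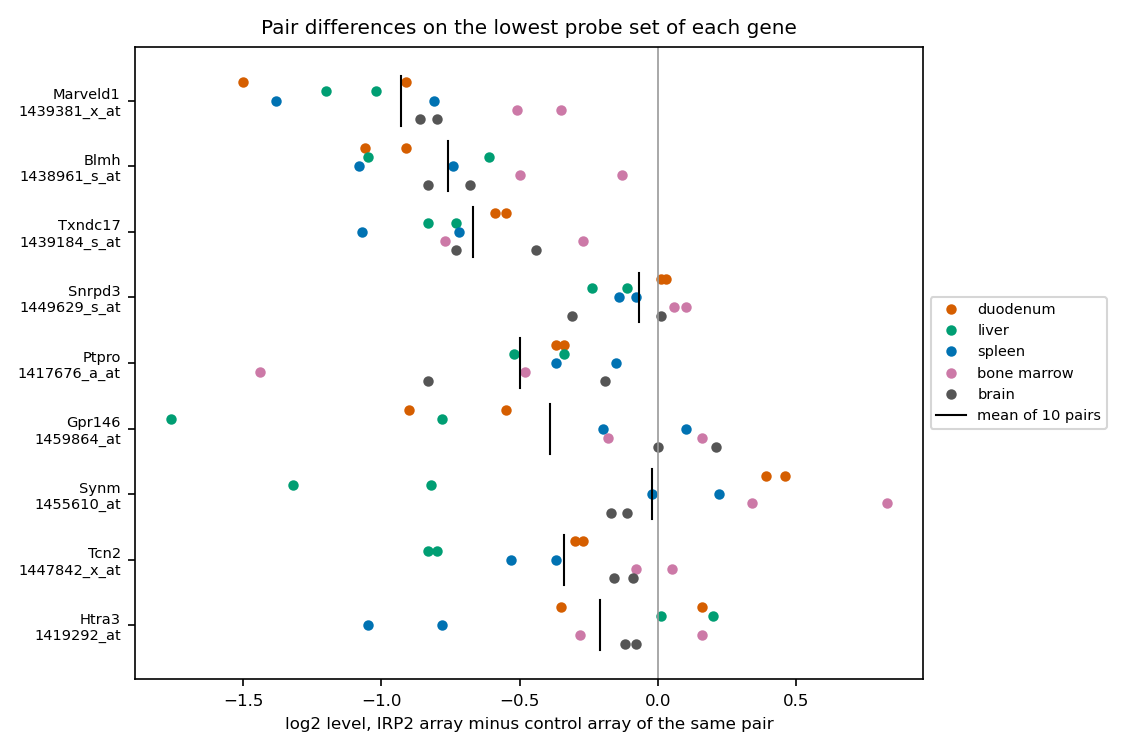
Each point is the log2 level on the IRP2 array minus that on the control array of 1 pair, for the lowest probe set of each gene, coloured by tissue; black bars are means of 10 pairs. Marveld1, Blmh, Txndc17 and Ptpro have all points left of 0, while the liver points of Synm and Tcn2, the liver and duodenum points of Gpr146 and the spleen points of Htra3 lie left of the other tissues.

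Marveld1, which codes for a protein with a membrane-spanning MARVEL domain, had the lowest mean of all tested probe sets on 1439381_x_at. In spleen its levels were 11.14 and 10.50 in the IRP2 reactions, against 11.94 and 11.88 in the controls. In liver they were 9.03 and 9.10 in the IRP2 reactions, against 10.22 and 10.11 in the controls. Both IRP2 arrays lay below both controls in these tissues. In duodenum the IRP2 reactions gave 8.15 and 7.89, against 9.06 and 9.39 in the controls. In brain the IRP2 reactions gave 7.94 and 8.23, against 8.74 and 9.09 in the controls. These groups did not overlap either. In bone marrow the IRP2 reactions gave 10.44 and 9.68, against 10.95 and 10.03 in the controls, and the groups overlapped although each pair was below 0. The mean pair difference was -0.93 ± 0.36 (SD, n = 10), a control-to-IRP2 ratio of 1.91 on the linear scale. It was -1.06 without bone marrow.

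Blmh, which codes for bleomycin hydrolase, a cysteine peptidase of the cytosol, came second, with a mean of -0.76 ± 0.30 (SD, n = 10) on 1438961_s_at. The largest difference by tissue was in duodenum, with levels of 8.60 and 8.85 in the IRP2 reactions, against 9.51 and 9.91 in the controls. In spleen the levels were 9.91 and 9.59 in the IRP2 reactions, against 10.65 and 10.68 in the controls. IRP2 arrays lay below both controls in these tissues and in liver and brain, where the mean differences were -0.83 and -0.75. Bone marrow again showed the smallest difference, with 10.04 and 9.85 in the IRP2 reactions, against 10.54 and 9.98 in the controls, and overlapping groups. The pair differences of Blmh and Marveld1 ran together (Pearson r = 0.898 over 10 pairs), a description of values from shared arrays, since each pair of arrays gives both.

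**Figure D2:**
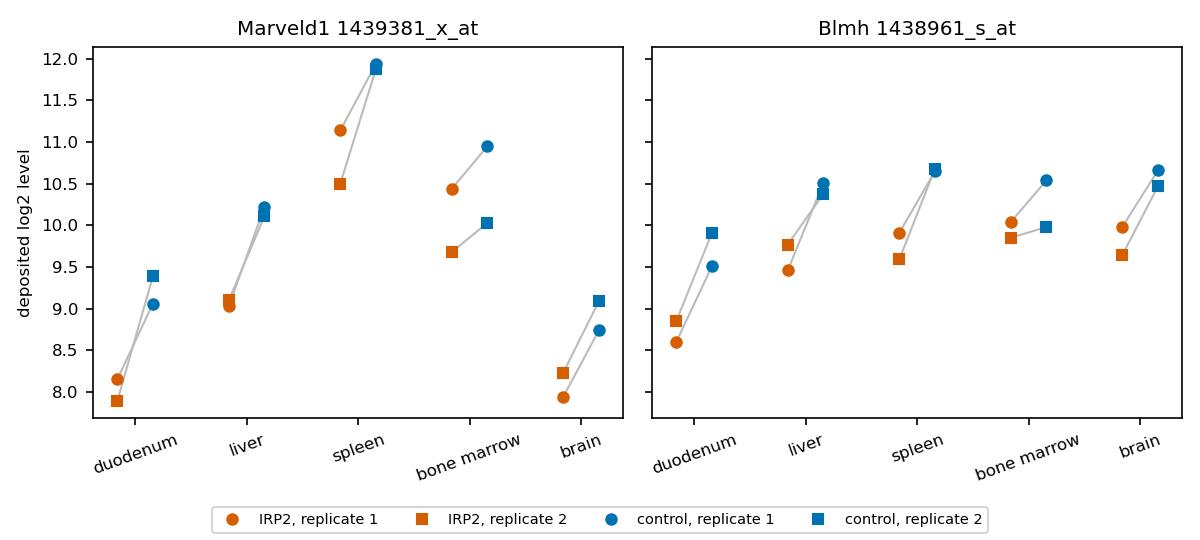
Deposited log2 level on each array for the lowest probe sets of Marveld1 and Blmh, IRP2 reactions (orange) left of controls (blue) in each tissue, with grey lines joining pairs. Every line rises from the IRP2 to the control array, least in bone marrow, where the groups overlap.

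Txndc17 codes for a small thioredoxin-like protein that reduces disulfides in the cytosol. Its lowest probe set, 1439184_s_at, had a mean pair difference of -0.67 ± 0.22 (SD, n = 10) and the smallest spread of the 4 genes that were low in every pair. In spleen its levels were 9.57 and 9.51 in the IRP2 reactions, against 10.29 and 10.58 in the controls. In liver they were 10.33 and 10.68 in the IRP2 reactions, against 11.16 and 11.41 in the controls. The reactions did not overlap in liver, spleen or brain. In duodenum each pair was below 0, by -0.55 and -0.59, but the replicates lay so far apart (IRP2 11.48 and 12.11, control 12.02 and 12.70) that the groups overlapped. Bone marrow overlapped too, with pair differences of -0.77 and -0.27.

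Ptpro, a receptor-type protein tyrosine phosphatase best known from kidney podocytes and neurons, was the only one of the 9 genes whose lowest probe set had both IRP2 arrays below both controls in all 5 tissues, as 6 (0.0199%) of all tested probe sets had. In brain, its highest tissue, 1417676_a_at read 8.36 and 9.15 in the IRP2 reactions, against 9.20 and 9.35 in the controls. In duodenum it read 6.50 and 6.37 in the IRP2 reactions, against 6.84 and 6.73 in the controls. The difference was small and of like size in both duodenum pairs (-0.34 and -0.37), and spleen had the smallest mean, -0.26. In bone marrow the levels were 6.86 and 6.40 in the IRP2 reactions, against 8.30 and 6.88 in the controls. The highest of these values, 8.30, is from the control array that stood apart, and the mean pair difference of -0.50 ± 0.38 (SD, n = 10) was -0.39 without bone marrow. In the pair of that array the 3 measured erythroid markers went both ways. Slc4a1 differed by -0.94 and Epb42 by -1.49, but Alas2, itself an mRNA with an iron-responsive element, by 0.52. The median difference there was -0.61 for 6 myeloid markers and 0.50 for 6 fibroblast markers. The part of such cells in the Ptpro value was not tested.

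Tcn2 codes for transcobalamin, the plasma protein that carries vitamin B12 to cells. Its lowest probe set, 1447842_x_at, had a mean of -0.34 ± 0.30 (SD, n = 10) and was below 0 in 9 of 10 pairs. In liver it read 9.30 and 9.39 in the IRP2 reactions, against 10.13 and 10.19 in the controls. In spleen it read 9.25 and 9.11 in the IRP2 reactions, against 9.62 and 9.64 in the controls. The groups were apart in these 2 tissues and overlapped in duodenum, bone marrow and brain, where the tissue means were -0.29, -0.02 and -0.13.

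Gpr146, an orphan receptor coupled to G proteins that in mouse liver affects blood cholesterol, was low in liver and duodenum on 1459864_at. In liver its levels were 5.70 and 5.0 in the IRP2 reactions, against 6.48 and 6.76 in the controls. In duodenum they were 4.04 and 4.12 in the IRP2 reactions, against 4.94 and 4.67 in the controls. Neither tissue had overlapping groups. In spleen, bone marrow and brain the 6 pair differences ran from -0.20 to 0.21. The probe set is dim: its median percentile on the control arrays was 15.8, and liver was the only tissue in which its level exceeded the array median. Its mean of -0.39 ± 0.62 (SD, n = 10) was -0.24 without liver pair 2, the pair with the largest difference (-1.76).

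Synm codes for synemin, an intermediate filament protein of muscle cells and astrocytes. On 1455610_at it was lower with IRP2 in liver, at 4.48 and 4.48 in the IRP2 reactions, against 5.30 and 5.80 in the controls. In duodenum it was higher with IRP2, at 7.35 and 7.80 in the IRP2 reactions, against 6.96 and 7.33 in the controls. In bone marrow it was also higher, at 5.43 and 5.11 in the IRP2 reactions, against 4.60 and 4.77 in the controls. No overlap was seen in these 3 tissues, nor in brain, where it was slightly lower with IRP2 (-0.11 and -0.17). Its mean over tissues, -0.02 ± 0.64 (SD, n = 10), therefore hides opposite tissue values. The probe set was dim in bone marrow and liver, where it reached the array median on 0 and 1 of 4 arrays. The median pair difference of 6 smooth muscle markers was 0.09 and -0.06 in liver, 0.0 and 0.02 in duodenum and 0.43 and -0.12 in bone marrow. Single markers went both ways: in duodenum Myh11 differed by 0.73 and 0.74, and Cnn1 by -0.43 and -0.69. Synm differed by -0.82 and -1.32 in the same liver pairs, by 0.39 and 0.46 in the duodenum pairs and by 0.83 and 0.34 in the bone marrow pairs, and the part of muscle RNA in these values was not tested.

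Htra3, a secreted serine protease of the HtrA family, was low in spleen. On 1419292_at the spleen levels were 7.03 and 7.49 in the IRP2 reactions, against 8.08 and 8.27 in the controls. The groups overlapped in each of the other 4 tissues, where tissue means lay between -0.10 and 0.10. The median pair difference of 6 fibroblast markers in the same spleen pairs was 0.02 and -0.11.

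Snrpd3 codes for SmD3, a protein of the ring that binds spliceosomal small nuclear RNAs. Its low values were in duodenum on 1422885_at, with 6.78 and 5.92 in the IRP2 reactions, against 7.53 and 6.76 in the controls. The pair differences, -0.75 and -0.84, were alike although the groups overlapped. The same probe set was higher with IRP2 in liver, at 8.57 and 8.65, against 8.42 and 8.36 in the controls, and its mean over 10 pairs was -0.01. In bone marrow its pair differences were 0.40 and 0.63. By its mean, the lowest Snrpd3 probe set was another, 1449629_s_at, at -0.07 ± 0.13 (SD, n = 10), rank 9670 from the lowest.

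Within a gene, low values were mostly seen on 1 probe set. The 17 other tested probe sets of the 9 genes had mean pair differences between -0.19 and 0.20, with a median of -0.03, and 11 lay within 0.1 of 0, as 63.7% of all tested probe sets did. Over all 30153 the median was -0.02 and the SD 0.14. None of the 17 was below 0 in all 10 pairs. The 3 other Marveld1 probe sets had means of -0.05, -0.01 and 0.06, against -0.93 on the lowest. The other Blmh probe set, 1452101_at, had a mean of -0.07. In duodenum it read 7.37 and 7.21 in the IRP2 reactions, against 7.22 and 7.16 in the controls, in the tissue where 1438961_s_at gave its largest difference. In bone marrow it was lower with IRP2 in both pairs, by -0.72 and -0.36, and in spleen by -0.04 and -0.20, and in both tissues the IRP2 arrays lay below both controls.

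Txndc17 came nearest to several probe sets moving one way. Its 1423035_s_at and 1423034_at had means of -0.19 and -0.18 and were below 0 in 8 and 7 of 10 pairs. Bone marrow pair 1 contributed the largest part, at -0.96 and -1.39, and no other pair of these probe sets was below -0.28. In duodenum, where 1439184_s_at differed by -0.55 and -0.59, 1423035_s_at differed by 0.11 and 0.06. The 4 other Tcn2 probe sets had means from -0.08 to 0.14, and the 3 other Gpr146 probe sets from -0.11 to 0.08. In duodenum, Gpr146 1423632_at was higher with IRP2 by 1.1 and 0.22, with both IRP2 arrays above both controls. There 1451060_at differed by 0.11 and -0.62, and 1454685_at by -0.19 and -0.12. In liver 1423632_at differed by -0.13 and 0.19, 1451060_at by 0.38 and 0.29, and 1454685_at by 0.28 and -0.16. None of these 3 had both IRP2 arrays below both controls in either tissue. Synm 1457275_at had a mean of 0.20. Htra3 1431762_at had a mean of -0.12 and went the same way as 1419292_at in spleen, with 6.77 and 6.96 in the IRP2 reactions, against 7.19 and 7.19 in the controls. In liver it also had both IRP2 arrays below both controls (pair differences of -0.30 and -0.63), where 1419292_at differed by 0.20 and 0.01. Ptpro has no second tested probe set, so its values rest on 1417676_a_at alone.

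**Figure D3:**
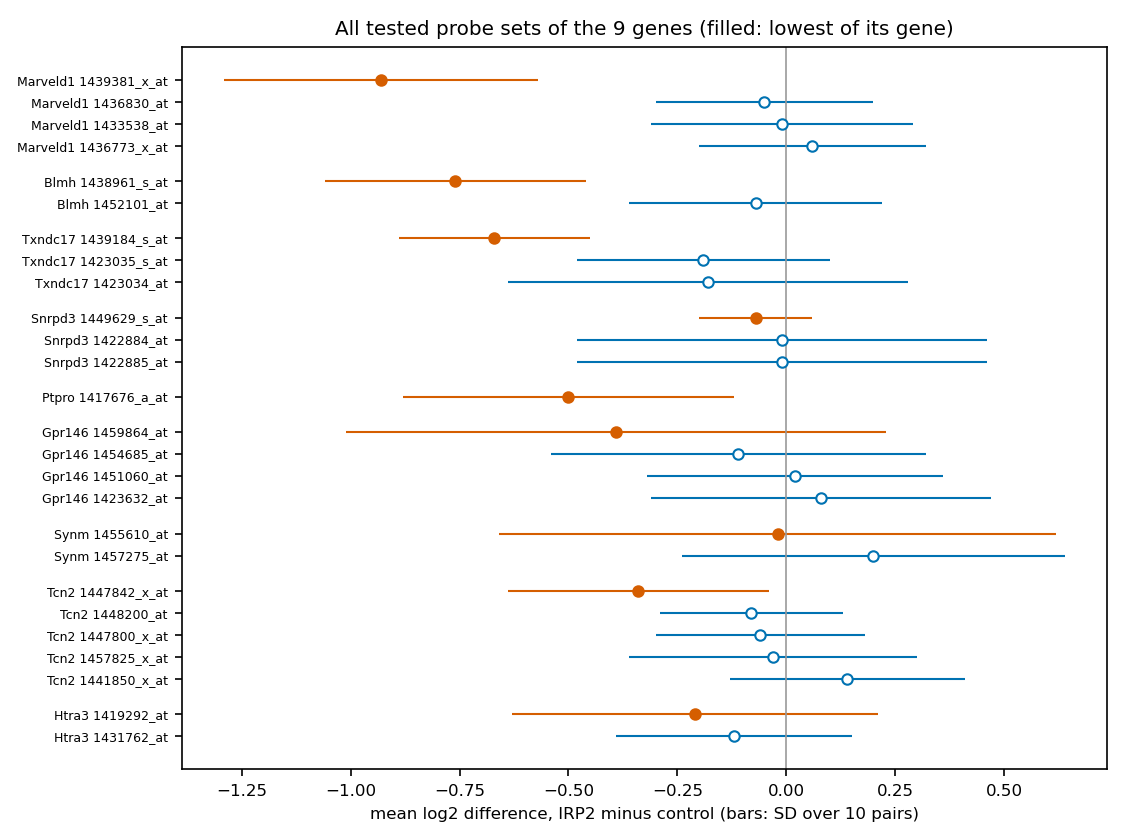
Mean log2 difference, IRP2 minus control, of the 26 tested probe sets, with bars for the SD over 10 pairs; filled orange points mark the lowest probe set of each gene and open blue points the others. Marveld1, Blmh and Txndc17 show a lowest probe set well left of 0 beside others between -0.19 and 0.06.

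The lowest probe set was also the brightest of its gene for 5 of the 9 genes. Ptpro, among these, had no second tested probe set, and the Synm one had a mean of only -0.02. With so few probe sets per gene, nothing is read from this count. The control level of the lowest probe set was often high. The median percentile on the control arrays was 92.8 for Marveld1, 94.4 for Blmh, 94.5 for Txndc17 and 91.0 for Tcn2. It was 70.9 for Snrpd3, 68.1 for Htra3, 64.5 for Ptpro, 38.4 for Synm and 15.8 for Gpr146. The other Marveld1 probe sets had median percentiles of 61.8, 44.7 and 27.1. Not every bright probe set was low: Tcn2 1447800_x_at, at percentile 92.8, had a mean of -0.06, and Txndc17 1423035_s_at, also at 92.8, had one of -0.19.

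The names of Affymetrix probe sets tell how specific the probes were when the array was designed. A plain _at probe set was designed for 1 transcript, _a_at for several transcripts of a gene, _s_at for transcripts that may come from more than 1 gene, and in _x_at some probes match other sequences. Of the 9 lowest probe sets, 6 (66.7%) had one of the last 3 endings: Marveld1, Blmh, Txndc17, Snrpd3, Ptpro and Tcn2. The Snrpd3 one, 1449629_s_at, was itself hardly low, with a mean of -0.07. The Snrpd3 probe set that gave the low duodenum values, 1422885_at, is a plain _at and counts among the 17 others. The share was 29.4% among the 17 other tested probe sets of these genes and 23.5% among all tested. Whether other transcripts add to these readings was not tested.

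The same contrast over all probe sets gives the background of the choice. With limma on group means, 2 probe sets (0.00663%) were called lower with IRP2 on the mean over tissues at an adjusted p under 0.05, and 110 (0.365%) higher. The 2 are the lowest probe sets of Marveld1 and Blmh. With the pairs of arrays as blocks (the replicate block), each IRP2 array is compared with its own control. In that fit 44 (0.146%) were lower and 322 (1.07%) higher. Those 44 include the lowest probe sets of Marveld1, Blmh, Txndc17, Ptpro and Tcn2. Because the genes were chosen on this contrast, the calls restate the choice. Of the 26 tested probe sets, both IRP2 arrays lay below both controls for 12 in liver (20.7% of all tested), 11 in spleen (20.2%), 6 in brain (6.44%), 4 in duodenum (8.98%) and 2 in bone marrow (12.1%), from which nothing is read for the same reason.

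The other genes called lower with the block were described in the same way. Beside the 5 genes described here, 36 genes with 1 symbol were among the 44, with a median pair difference of -0.36 on the called probe set. For 30 of them another probe set was tested, and the median over those 55 probe sets was -0.08, with 2 of them below 0 in all pairs. Probe sets ending in _x_at made up 25.0% of the 44, against 6.25% of all tested and 5.90% of the 322 called higher. These medians and shares are a description, since the called probe sets were picked by the contrast. Such a choice gives lower values on the called probe sets even where the probe sets of a gene agree. No splitting between probe sets is therefore read from the medians.

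Just beside the 9 genes in rank stood other probe sets below 0 in all pairs. The lowest 5 of genes outside the list were C1qtnf12 with a mean of -0.58 (rank 4 from the lowest), Syap1 with -0.56 (rank 6), Nup153 with -0.55 (rank 7), Pi4k2b with -0.52 (rank 8) and Cox15 with -0.44 (rank 13). Ptpro, at -0.50, had rank 10, Gpr146 rank 25, Tcn2 rank 64 and Htra3 rank 846. Among the 36 pairings of the 9 lowest probe sets, the correlation of pair differences ran from -0.473 to 0.898 with a median of 0.189 (n = 10 pairs each). After Marveld1 with Blmh, the highest was Synm with Tcn2 (0.817). Ptpro had negative values with 7 of the other 8, the lowest with Htra3.

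The genes whose pair differences ran most like those of a listed gene were not themselves low on average and had mean pair differences between -0.11 and 0.09. For Marveld1 they were Sh3pxd2b (r = 0.924) and Tpd52 (0.923), with mean pair differences of -0.03 and 0.01. For Blmh they were Map3k10 (0.962) and Mapk8ip2 (0.942), with means of 0.02 and -0.08. For Ptpro they were Xiap (0.975) and Ints2 (0.970), with means of -0.11 and 0.03. By level over 20 centred arrays, the genes most like Marveld1 were Slc8b1 (0.930) and Seh1l (0.929), and those most like Txndc17 were Tmem170 (0.963) and Ugdh (0.930). Each is the highest over all tested probe sets of other genes, on 10 or 20 points from shared arrays, and serves as a description.

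The level of each gene across tissues was a further measure. It was taken as the mean of the IRP2 and the control array of a pair, after subtracting each array's median, and so holds 0.5 of any difference between the reactions. For the 10 probe sets that gave the low values (the lowest of each gene and Snrpd3 1422885_at) it is therefore given with no test. Synm 1457275_at has none either, since it reached the array median in duodenum alone, as Gpr146 1459864_at, one of the 10, did in liver alone. The 15 probe sets of 7 genes that remained were tested, and each value is set beside that of the control arrays alone. In bulk RNA, fewer cells of a type and less RNA per cell cannot be told apart.

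Levels differed between the 5 tissues for 14 of the 15 (limma F test, adjusted p under 0.05), or 93.3%, against 84.2% of all tested. Duodenum and liver differed for 5 of 15 (33.3%), 3 higher and 2 lower in duodenum, against 18.8% of all tested (10.6% higher, 8.25% lower). On the control arrays alone 4 of 15 did, against 14.5% of all tested. The 5 belong to 3 genes, Txndc17, Gpr146 and Tcn2, and probe sets of a gene are not independent. Spleen and bone marrow differed for 7 of 15 (46.7%), all higher in spleen. Of all tested, 43.7% differed and 34.4% were higher in spleen, so the 46.7% was near the background. On the control arrays alone 5 of 15 differed, against 28.7% of all tested. Over all 26 tested probe sets, with those that gave the low values included, the counts were 25 for the F test, 12 between duodenum and liver and 11 between spleen and bone marrow.

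Marveld1 1439381_x_at was highest in spleen, with centred levels of 6.15 and 5.79, then bone marrow (5.18 and 4.36) and liver (3.94 and 3.94). Brain (2.68 and 3.25) and duodenum (2.91 and 2.98) were lowest and overlapped. The dim 1436830_at followed this order loosely (r = 0.907 over the 10 pair levels) and was higher in spleen than in bone marrow by 1.41 ± 0.27 log2 units (SE, limma adjusted p = 0.00295). On the control arrays the difference was 1.44 (adjusted p = 0.00484). The remaining Marveld1 probe sets, 1433538_at and 1436773_x_at, were highest in bone marrow instead. Spleen minus bone marrow was -0.17 (limma adjusted p = 0.607) and -0.29 (adjusted p = 0.219) on these 2 probe sets. The control arrays gave -0.20 (adjusted p = 0.635) and -0.32 (adjusted p = 0.360). Their levels had r of 0.467 and 0.687 with 1439381_x_at. The pair differences between reactions of 1436830_at and 1439381_x_at had r = -0.0985, and 1436773_x_at had r = 0.518 with 1439381_x_at.

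Gpr146 1454685_at, its brightest probe set, was lower in duodenum than in liver (log2 difference -3.45 ± 0.27 SE, adjusted p = 1.2e-05), with centred levels of -0.46 in duodenum and 2.99 in liver. The control arrays gave -3.34 (adjusted p = 7.57e-05). Gpr146 1423632_at was also lower in duodenum, by a log2 difference of -0.97 ± 0.21 (adjusted p = 0.00792), or -1.29 on the control arrays (adjusted p = 0.00801). The lowest probe set, 1459864_at, had centred levels of -1.24 in duodenum and 0.32 in liver. Its levels ran with those of 1454685_at (r = 0.926 over 10 pairs), and the pair differences between reactions of these 2 probe sets had r = 0.0684.

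Txndc17 1423034_at and 1423035_s_at were higher in duodenum than in liver, by 2.25 ± 0.31 (adjusted p = 0.000574) and 1.61 ± 0.27 (adjusted p = 0.00212). The control arrays gave 2.06 (adjusted p = 0.00929) and 1.47 (adjusted p = 0.0156). Spleen exceeded bone marrow on 1423034_at by 2.65 ± 0.31 (adjusted p = 0.000246), or 2.41 on the control arrays (adjusted p = 0.00479). Their levels had r of 0.882 and 0.869 with the lowest probe set, and their pair differences 0.388 and 0.250. Over all 17 other probe sets of the 9 genes, r with the lowest probe set of the gene ran from -0.732 to 0.926 for levels (median 0.687) and from -0.526 to 0.799 for pair differences (median 0.0684). The highest of the pair differences was Tcn2 1447800_x_at, whose mean pair difference was -0.06.

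Synm 1455610_at had centred levels of 1.46 and 1.90 in duodenum, against -0.80 and -0.52 in liver, and brain was close to duodenum at 1.49 and 1.8. Duodenum exceeded liver by 2.34 log2 units on pair means and by 1.59 on the control arrays. Smooth muscle markers were above the array median on both controls for 6 of 6 genes in duodenum and 4 of 6 in liver. All 4 measured pancreas acinar markers were highest in duodenum. The part of these cells in the tissue difference was not tested.

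Blmh was low in bone marrow on 1452101_at, which spleen exceeded by 1.17 ± 0.18 (adjusted p = 0.000866), or 0.95 on the control arrays (adjusted p = 0.0149). On its lowest probe set the spleen levels (4.89 and 4.74) and bone marrow levels (4.78 and 4.42) overlapped. Snrpd3 1422884_at was higher in spleen by 1.83 ± 0.30 (adjusted p = 0.00121), or 1.52 on the control arrays (adjusted p = 0.0288). Without bone marrow pair 1, which holds the array that stood apart, the difference between spleen and bone marrow was 1.81 on Marveld1 1436830_at, 3.09 on Txndc17 1423034_at, 1.16 on Blmh 1452101_at and 2.21 on Snrpd3 1422884_at, with adjusted p from 0.000478 to 0.00395. Tcn2 1441850_x_at was higher in duodenum than in liver by 1.21 ± 0.34 (adjusted p = 0.0349), and the control arrays gave 0.92 (adjusted p = 0.142).

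Brain held the highest levels of Ptpro and of 1 Snrpd3 probe set. Ptpro 1417676_a_at had centred levels of 3.12 and 3.84 in brain, followed by spleen (2.03 and 1.87) and bone marrow (2.06 and 1.14), which overlapped, then duodenum (0.97 and 0.89) and liver (0.58 and 0.58). Snrpd3 1449629_s_at had 4.91 and 5.52 in brain and between 1.54 and 2.40 in the other tissues. The other Snrpd3 probe sets were highest in spleen (1422884_at, 4.81) and liver (1422885_at, 2.83), so the 3 disagreed on the tissue order. The 5 Tcn2 probe sets agreed on duodenum as the highest tissue, with mean centred levels there from 3.03 to 5.96. Htra3 1419292_at was highest in spleen (2.16 and 2.48), overlapping duodenum (2.07 and 2.37), and 1431762_at did not pass the F test (adjusted p = 0.240).

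**Figure D4:**
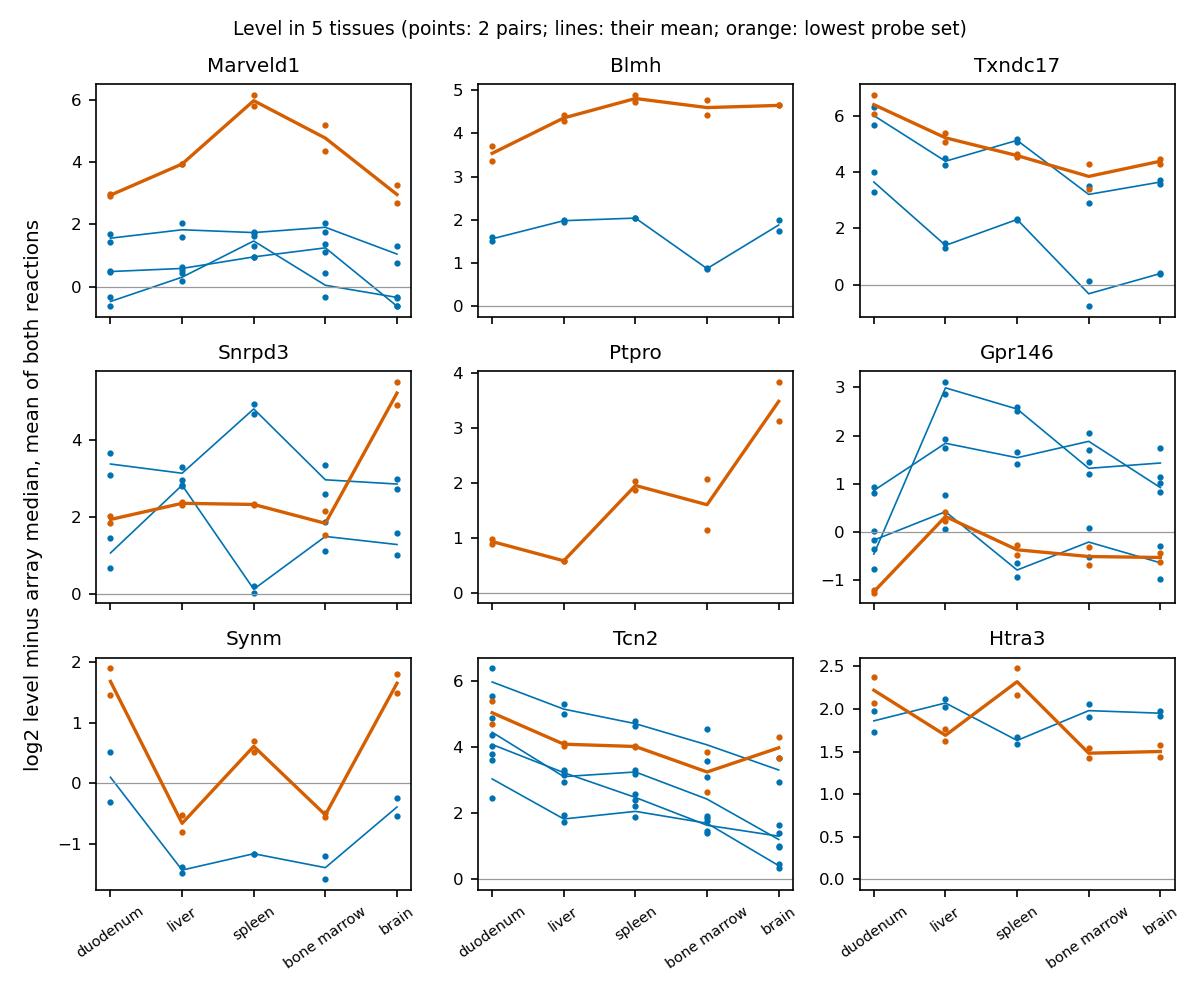
Log2 level minus the array median, averaged over the IRP2 and control array of a pair, in 5 tissues for each tested probe set; points are the 2 pairs, lines join their means as a guide, and orange marks the lowest probe set. Txndc17, Synm and Tcn2 probe sets run roughly parallel within their gene, while those of Snrpd3 peak in different tissues.

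Genes related by function to the 9 were set beside them on their brightest tested probe set, in the limma fit of the mean over tissues. Among partners of Snrpd3 in the Sm ring, Snrpe was higher with IRP2 by 0.71 ± 0.14 (SE, adjusted p = 0.0409), with pair differences of 0.93 and 0.66 in duodenum, 0.89 and 0.91 in liver, 0.42 and 0.29 in spleen, -0.06 and 0.85 in bone marrow and 0.90 and 1.31 in brain. It was positive in 9 of 10 pairs, the exception being bone marrow pair 1. Snrpb, Snrpf and Snrpg, the other measured partners, had means of -0.06, -0.12 and -0.08, with adjusted p of 1.0 each. Snrpe was the only gene that passed in the lists other than that of mRNAs with an iron-responsive element. With the replicate block 2 more did. Mmut, the B12-dependent methylmalonyl-CoA mutase, had a mean of 0.48 (adjusted p = 0.00155 with the block, 0.500 without), and Tmx2, a transmembrane thioredoxin-like protein, one of -0.29 (adjusted p = 0.0452 with the block, 1.0 without).

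The lists as wholes lay near the median of all tested probe sets, -0.02. The median mean pair difference was -0.07 for 4 Sm proteins, -0.07 for 6 Lsm proteins, -0.07 for 23 thioredoxin family genes and -0.01 for 19 MARVEL domain genes. It was -0.06 for 12 cytosolic peptidases, -0.02 for 17 receptor-type phosphatases, -0.03 for 12 class A receptors and 0.03 for 21 intermediate filament genes. It was -0.13 for 14 genes of B12 uptake and use, and 0.03 for 8 HtrA proteases and partners in TGF-beta signalling. The 6 measured mRNAs with an iron-responsive element had a median of 1.14, and 4 of 6 were called higher without the block and 6 of 6 with it.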

How the data were processed

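Deposited log2 values of 20 arrays were used. Per the series' design text, the authors made the log2 values with RMA in Bioconductor or with MAS5 in GCOS followed by quantile normalization; which of these, and the versions, are not given in the sources used here. The table holds 45101 probe sets, 64 of them controls of the manufacturer. A probe set was tested if it reached its array's median on at least 2 arrays, which left 30153 (66.9%). The platform annotation gave the gene symbols. The values were fitted with limma 3.58.1 (R 4.3.3) on 10 group means, with p-values adjusted by Benjamini-Hochberg over all tested probe sets and a threshold of 0.05. Tissue levels were fitted on 10 pair means; as these hold 0.5 of the difference between reactions, tests are given only for 15 probe sets that neither gave a low value nor passed the filter through 1 tissue, a restriction added after seeing the data. Arrays with the same replicate number varied together (deviations from group means correlated at 0.251 to 0.923 in the 5 tissues), a pairing taken from these values and from the parallel controls in the labels. The arrays give no depth, and their number limits the precision. The fits were tested on simulated data. Alternatives were the replicate block, other scalings and filters, control arrays only, and each array or pair left out; the array range as a block and the mean without bone marrow were added after seeing the data.

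The 9 genes, the related lists and the tests were chosen with earlier results of these data known. All probe sets of the 9 genes were described. The rule for other genes took the 5 lowest probe sets below 0 in all pairs, and the 2 genes most like each lowest probe set by Pearson r; members of the related lists were named where they passed in either fit, and the Sm partners in full. No sequence was read.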

Additional observations from a re-analysis of the deposited data

Results flagged for a closer look

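For 5 of 10 probe sets examined (the lowest of each gene and Snrpd3 1422885_at), both pairs of 1 tissue lay below 0 and both pairs of another above 0. The difference between the tissues was not tested, and 55.2% of all tested probe sets meet the same description. For Synm 1455610_at the IRP2-minus-control difference was -1.07 in liver and 0.59 in bone marrow, a gap of -1.66 between tissues where it was dim. Gpr146 1459864_at had -1.27 in liver and 0.11 in brain, a gap of -1.37, where 1 brain pair was barely above 0. Snrpd3 1422885_at had -0.80 in duodenum and 0.52 in bone marrow, a gap of -1.31. Htra3 1419292_at had -0.91 in spleen and 0.10 in liver, a gap of -1.02. Snrpd3 1449629_s_at had -0.18 in liver and 0.08 in bone marrow, a gap of -0.25.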

How the results depend on the processing

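The fit had 2 arrays per group. On the mean, the count of 2 lower became 4 after quantile normalization, 44 with the replicate block and 139 with the block but without bone marrow arrays, and 2 to 15 when 1 array was left out (15 without bone marrow control replicate 2). In duodenum it was 0, 1 after quantile normalization and 4 with the replicate block. In liver and spleen it was 0, and 4 with the block in each. In bone marrow it was 0, 1 after quantile normalization, 105 with the block, and 0 to 1679 when 1 array was left out: 1679 without control replicate 2, and 1 without IRP2 replicate 2 or control replicate 1. In brain it was 1, 0 with the stricter filter, and 0 to 1 when 1 array was left out (0 without IRP2 replicate 1 or either control). At an unadjusted p under 0.05, limma gave 64 lower and 316 higher in duodenum, 97 and 239 in liver, 26 and 262 in spleen, 1439 and 523 in bone marrow and 47 and 166 in brain. Over the mean of tissues these were 283 and 583. The tissue counts that follow come from fits that leave 1 pair in 1 tissue. They include probe sets for which no tissue test is given. In these fits the share of all tested probe sets that differed between duodenum and liver, or passed the F test, moved as well. The ranges are therefore not particular to the 9 genes. Leaving out 1 pair gave 7 to 15 probe sets of the 9 genes that differed between duodenum and liver (7 without liver replicate 1, 8 without liver replicate 2), 7 to 14 of 26 between spleen and bone marrow (7 without bone marrow replicate 2, where 23.8% of all tested differed, and 14 without replicate 1, where 41.6% did), and 22 to 25 in the F test. The mean pair differences of the 9 lowest probe sets moved by less than 1 SD under all 117 alternatives. Most of these left out 1 pair or bone marrow, which cannot move such a mean by 1 SD whatever the values. The count of 117 is therefore no measure of stability. The largest shift was 0.01 with centring and 0.07 with quantile normalization. The Synm mean crossed 0, at -0.11 to 0.12, when 1 pair was left out. On the mean over tissues, the replicate block changed the counts above and the calls of Mmut, Tmx2 and 2 mRNAs with an iron-responsive element, and no other call of a related gene.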
